A study of Homo sapiens with 6 samples.

Results

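Tight junctions and desmosomes are the contacts by which epithelial cells seal and hold together a sheet. The genes of both contacts that were examined here were 46 of the 58735 genes in the table: protein-coding genes named *CLDN*, *TJP*, *DSC* or *DSG* with a number, together with *OCLN*, *MARVELD2*, *MARVELD3*, *CGN*, *F11R*, *PKP1*, *PKP2*, *PKP3*, *DSP*, *JUP*, *PPL* and *EVPL*. Of these, 32 encode tight junction proteins and 14 encode desmosome proteins. The rule used gene names and biotype, and it was set with earlier results of these data known.

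RNA was sequenced from TPC-1, an established human papillary thyroid carcinoma cell line, in 6 libraries. The wild strain TPC-1 group (labelled WT) and the *RRM2*-OE-TPC-1 group, in which the ribonucleotide reductase subunit *RRM2* was overexpressed, held 3 libraries each. In the overexpression group, full-length *RRM2* was delivered by a lentivirus under a CMV promoter and cells were selected with puromycin, whereas the comparison was with the wild strain. No library with an empty vector was analysed here, so the effects of *RRM2*, of the virus and of the selection cannot be told apart. The genotype labels of overexpression replicates 2 and 3 read RRM3 and RRM4, while their titles read RRM2. FPKM are fragments scaled by gene length and, per the study's methods, by sequencing depth. The scaling of the deposited values hardly differed from median-of-ratios factors and did differ from library totals, as described in the last section. *RRM2* stood at 9.17, 9.05 and 8.52 FPKM in TPC-1 and at 50.4, 47.5 and 47.2 FPKM in *RRM2*-OE-TPC-1, so all 3 overexpression libraries matched their titles. The libraries held between 14317091 and 17084067 reads on genes. A gene was tested when it reached a minimum of 0.5 FPKM and 10 reads in at least 3 libraries.

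In a tight junction, claudins form the paracellular seal or its ion-selective pores, occludin and the other MARVEL proteins and the junctional adhesion molecule F11R sit beside them in the membrane, and the ZO proteins (among them *TJP1* and *TJP3*) and cingulin (*CGN*) form the cytoplasmic plaque. In a desmosome, the cadherins desmocollin (*DSC*) and desmoglein (*DSG*) bind between cells, the armadillo proteins plakoglobin (*JUP*) and the plakophilins (*PKP*) bind their tails, and plakins such as desmoplakin (*DSP*) tie the plaque to keratin filaments. Normal thyroid follicular cells are joined by both contacts around the follicle lumen.

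Only some of the thyroid and epithelial markers reached the minimum. Of 8 thyroid follicular markers, *PAX8* and *FOXE1* were tested, the others, *TG*, *DIO1*, *TSHR* and *SLC5A5* among them, were under the minimum in every library, and *NKX2-1* was at 0. The summed FPKM of the 8 genes was 71.7 to 75.4 in TPC-1 and 59.7 to 63.1 in *RRM2*-OE-TPC-1. Of 6 epithelial markers, *KRT18*, *KRT8* and *KRT7* were tested and *KRT19*, *CDH1* and *EPCAM* were under the minimum, with a sum of 42.9 to 47.1 FPKM against 88.4 to 90.8 FPKM. The thyroid sum was lower in every overexpression library and was nearly all *PAX8*, at a mean of 69.3 FPKM in TPC-1 against 58.5 FPKM. *FOXE1* fell by 0.42 on the log2 scale (limma adjusted p = 4.38e-04). *TG*, under the minimum, was higher in every overexpression library, on 19 reads in the TPC-1 group against 44. The epithelial sum was nearly all *KRT18*, at a mean of 41.2 FPKM in TPC-1 against 85.2 FPKM. *KRT8* also rose, by 0.43 on the log2 scale (limma adjusted p = 0.00218), while the log2 fold change of *KRT7* was -0.21 (limma adjusted p = 0.169). Under the minimum, *KRT19* had 1 read in the TPC-1 group against 11 and *EPCAM* had 2 against 10. *CDH1* was at a mean of 0.0786 against 0.0508 FPKM. All 5 squamous markers were under the minimum in every library, with sums of 0 to 0.0080 FPKM against 0.043 to 0.080 FPKM. The fibroblast sum of 8 genes was 2.98 to 3.39 against 2.95 to 3.05 FPKM with *COL3A1*, *COL1A2* and *DCN* at 0. The endothelial sum of 5 genes was 1.10 to 1.35 against 0.468 to 0.542 FPKM. Its fall was that of *PECAM1*, at a mean of 0.924 FPKM in TPC-1 against 0.0588 FPKM, which reached the minimum through TPC-1 only. *TEK*, under the minimum, was higher in every overexpression library, at a mean of 0.261 against 0.397 FPKM, and *VWF* had 3 reads against 16. The leukocyte sum of 6 genes was 0.350 to 0.410 against 0.135 to 0.215 FPKM with *LYZ* and *CD3E* among the genes at 0. The part of these shifts in the results below was not tested.

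Sequences ahead of the starts of members are shown to let a reader see what stands before the genes that moved together and before those that moved apart. The RefSeq table of promoters (GRCh38.p14) held windows for 33 of the 46 members, among them 13 of the 16 tested ones and none for *F11R*, *PKP2* and *PKP3*. The 250 bases before each start were searched for the E-box CAGGTG or CACCTG, the letters that the SNAIL and ZEB repressors bind, and for the GC box GGGCGG or CCGCCC. Both strands were read and overlapping matches were counted. The E-box letters were in 17.5% of all 35116 windows and the GC box letters in 42.6%. In the 23 windows of tested members, 8 held an E-box and 14 held a GC box. The longest stretch outside every annotated exon is printed 5′ to 3′ for 5 members that changed by a log2 fold change of 1 or more and for *DSG2*, which moved against its partner *JUP*, with E-box and GC box letters in capitals.
*CGN*, chr1:151511137-151511386, plus strand: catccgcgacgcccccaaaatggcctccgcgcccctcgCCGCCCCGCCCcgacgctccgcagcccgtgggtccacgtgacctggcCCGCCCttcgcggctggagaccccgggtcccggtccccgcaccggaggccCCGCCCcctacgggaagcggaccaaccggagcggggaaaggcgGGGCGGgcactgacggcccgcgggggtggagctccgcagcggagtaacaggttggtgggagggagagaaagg
*CLDN16*, chr3:190290111-190290360, plus strand: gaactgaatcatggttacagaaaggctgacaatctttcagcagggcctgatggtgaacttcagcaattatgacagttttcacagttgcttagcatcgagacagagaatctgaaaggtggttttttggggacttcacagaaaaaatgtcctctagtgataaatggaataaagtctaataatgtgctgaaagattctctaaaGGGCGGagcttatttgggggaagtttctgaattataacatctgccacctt
*CLDN18*, chr3:137998566-137998734, plus strand: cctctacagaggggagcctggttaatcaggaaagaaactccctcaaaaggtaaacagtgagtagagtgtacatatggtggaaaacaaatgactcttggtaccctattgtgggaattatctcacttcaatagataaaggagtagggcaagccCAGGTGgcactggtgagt
*CLDN2*, chrX:106918110-106918359, plus strand: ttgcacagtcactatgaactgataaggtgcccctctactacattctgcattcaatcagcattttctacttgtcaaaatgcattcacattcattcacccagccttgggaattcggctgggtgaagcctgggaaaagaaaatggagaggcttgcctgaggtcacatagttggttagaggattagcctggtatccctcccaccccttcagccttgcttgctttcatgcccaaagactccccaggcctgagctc
*TJP3*, chr19:3721487-3721616, plus strand: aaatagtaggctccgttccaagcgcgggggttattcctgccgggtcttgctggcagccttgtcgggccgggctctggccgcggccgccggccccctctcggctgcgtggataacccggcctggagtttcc
*DSG2*, chr18:31497927-31498042, plus strand: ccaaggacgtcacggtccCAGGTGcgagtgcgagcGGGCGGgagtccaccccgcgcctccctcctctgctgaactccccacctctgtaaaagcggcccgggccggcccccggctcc
The stretch of *CGN* held 5 GC boxes, at 212, 207, 165, 115 and 72 bases before the start, and the first pair overlapped. The stretch of *CLDN16* held 1 GC box, 50 bases before the start, and that of *CLDN18* held 1 E-box, 99 bases before it. Those of *CLDN2* and *TJP3* held neither, and the E-box and GC box in the *TJP3* window lay nearer the start, at 7 and 45 bases, within an annotated exon. The *DSG2* stretch held an E-box and a GC box at 232 and 215 bases. The *DSG2* window also held an E-box and a GC box nearer the start, at 116 and 48 bases, within an annotated exon. The windows of *JUP* were mostly annotated exon and are not printed. One of them held GC boxes at 139 and 69 bases and the other held E-boxes at 54 and 43 bases. A match of letters is a description of the sequence and not evidence of binding.

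Which of these genes did the TPC-1 line use, and which moved with *RRM2* overexpression? Of the 46 members 16 reached the minimum. Limma was fitted to log2(FPKM + 0.1) over all 13621 tested genes with Benjamini-Hochberg adjustment, and a gene was called when the adjusted p was 0.05 or less and the log2 fold change was 1 or more in size. Fold changes on this scale understate the change of low genes. Of the 16 tested members, 6 were called (37.5%), against 11.5% of all genes tested. *CGN* was the 1 member called higher, where 4.48% of all genes were called higher, and *JUP*, *TJP3*, *CLDN18*, *CLDN16* and *CLDN2* were the 5 called lower, where 6.97% of all genes were called lower. By the adjusted p alone 14 of 16 members changed, where 67.6% of all genes did. Of these, 4 rose, where 34.9% of all genes rose, and 10 fell, where 32.7% of all genes fell. The groups did not overlap for 15 of the 16 members, where 72.2% of all genes did not overlap. The median log2 fold change was -0.47 over the 16 members and 0.011 over all genes tested, and its sign turned to a median of 0.043 over 40 members with no filter on low values.

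The minimum itself weighs on these counts. *CLDN2*, *TJP3* and *CLDN18* reached it through TPC-1 only and *CGN* through *RRM2*-OE-TPC-1 only. In these 4 the minimum favoured a difference between groups, without forcing a call. Of the 12 members that reached it in both groups, *JUP* and *CLDN16* were called (16.7%), against 8.17% of the 12098 genes that did so, and a share that stands on 2 genes is not read as a difference. The median over these 12 members was -0.40, beside 0.031 over those genes. In bulk RNA, fewer cells with a transcript and less of it per cell cannot be told apart. Replicates were described in the study's methods as biological, and what separated the cultures was not further given in the labels.

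**Figure D1:**
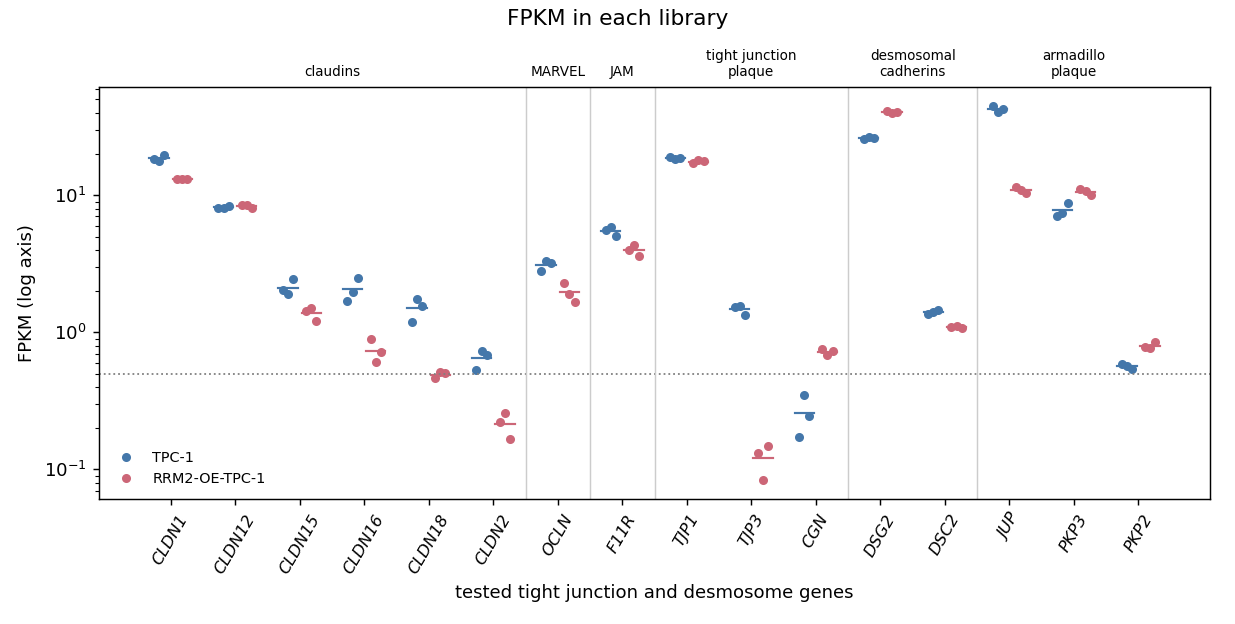
FPKM of the 16 tested members in each library, on a log axis, with TPC-1 in blue and *RRM2*-OE-TPC-1 in red; short bars are group means and the dotted line is the minimum of 0.5 FPKM. *JUP* stood between 40.7 and 44.7 FPKM in TPC-1 and between 10.4 and 11.4 FPKM in *RRM2*-OE-TPC-1, while *DSG2* moved from 25.5 to 26.6 up to 39.5 to 41.0 FPKM.

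Of the 6 tested claudins, 5 fell by the adjusted p and none rose, where 32.7% of all genes fell, and 2 of the 5, *CLDN2* and *CLDN18*, reached the minimum through TPC-1 only. *CLDN1*, a barrier-forming claudin, was the most abundant, at 18.3, 17.9 and 19.7 FPKM in TPC-1 and at 13.2, 13.2 and 13.2 FPKM in *RRM2*-OE-TPC-1. All 3 overexpression libraries lay below all 3 TPC-1 libraries, and the gene fell by 0.49 on the log2 scale (SE 0.044, limma adjusted p = 2.6e-05), under the fold threshold. *CLDN12*, the next in level, stood at 8.06, 8.04 and 8.38 FPKM against 8.50, 8.56 and 8.14 FPKM. Its groups overlapped, and the log2 fold change of 0.041 had a 95% interval from -0.065 to 0.15, with a negative sign when libraries were scaled to their totals or upper quartiles or with voom on reads.

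*CLDN16*, known for magnesium handling in the kidney, stood at 1.71, 1.96 and 2.50 FPKM in TPC-1 and at 0.888, 0.603 and 0.718 FPKM in *RRM2*-OE-TPC-1. It fell by 1.36 on the log2 scale (SE 0.18, limma adjusted p = 2.38e-04). *CLDN18*, known as the claudin of stomach and lung, stood at 1.19, 1.76 and 1.55 FPKM against 0.464, 0.512 and 0.501 FPKM, and fell by 1.42 (SE 0.16, limma adjusted p = 1.13e-04). In both genes every overexpression library lay below every TPC-1 library. *CLDN2*, which forms a cation-selective pore, was near the minimum at 0.527, 0.732 and 0.681 FPKM against 0.223, 0.257 and 0.166 FPKM, which rested on 30, 42 and 37 reads against 11, 15 and 9. It fell by 1.24 (SE 0.21, limma adjusted p = 0.00107). *CLDN15*, another pore-forming claudin, fell by 0.57 (SE 0.13, limma adjusted p = 0.00453) from 2.03, 1.89 and 2.43 to 1.43, 1.51 and 1.21 FPKM. The groups of *CLDN2* and *CLDN15* did not overlap either. The 3 calls among claudins were lost with a pseudocount of 1, where the log2 fold changes were -0.81 for *CLDN16*, -0.74 for *CLDN18* and -0.44 for *CLDN2*, and in a test of a change above 1.

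*CLDN1* and *CLDN16* lie head to head on chromosome 3 (GRCh38), *CLDN1* on the minus strand at 190305701 to 190322475 and *CLDN16* on the plus strand at 190322541 to 190412143, with 65 bases between them. Both fell, by unequal amounts. The printed stretch of *CLDN16* lies beyond the far end of *CLDN1*, before a RefSeq start that is outside the *CLDN16* gene of the table. Summed over the 24 claudins, FPKM went from 35.1 ± 1.57 (SD, n = 3) to 26.5 ± 0.887 (SD, n = 3), without overlap. *CLDN1* and *CLDN12* together made up 76.2% ± 0.533 of this sum in TPC-1, against 81.7% ± 1.85 with overexpression (SD, n = 3 per group). The shares of the 2 genes went in opposite directions, each without overlap. That of *CLDN1* went from 53.0% ± 0.544 to 49.9% ± 1.50, and that of *CLDN12* from 23.2% ± 0.488 to 31.7% ± 0.528.

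Of the 18 claudins that were not tested, 6 had 10 reads or more in a library. *CLDN9* had 34, 23 and 13 reads in TPC-1 against 6, 9 and 10 in *RRM2*-OE-TPC-1, and its 0.994 FPKM in TPC-1 replicate 1 was the highest value of any untested member. The *CLDN9* groups did not overlap, with lower values under overexpression, and no test was made. *CLDN23* had 11, 11 and 6 reads against 11, 13 and 11, *CLDN6* had 8, 11 and 7 against 12, 14 and 6, and *CLDN14* had 6, 5 and 3 against 8, 11 and 13. In FPKM the groups of *CLDN14* and *CLDN23* did not overlap either, with higher values under overexpression. Among all genes tested, 72.2% did not overlap. *CLDN20* had 9, 4 and 7 reads against 4, 12 and 3, and *CLDN10* had 9, 6 and 7 against 2, 5 and 12, with 46.1% of its exonic bases shared with *DZIP1* on the opposite strand. The remaining 12 claudins, which include the common epithelial claudins *CLDN3*, *CLDN4* and *CLDN7*, had between 0 and 5 reads in any library. *CLDN4* had 3 to 5 reads in each of the 6 libraries.

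Both tested genes of the other membrane proteins fell. *OCLN*, occludin, stood at 2.80, 3.34 and 3.20 FPKM in TPC-1 and at 2.30, 1.92 and 1.67 FPKM in *RRM2*-OE-TPC-1, and fell by 0.65 on the log2 scale (SE 0.13, limma adjusted p = 0.00218). *F11R*, which encodes the junctional adhesion molecule JAM-A, went from 5.56, 5.85 and 5.00 to 4.02, 4.33 and 3.61 FPKM, a fall of 0.45 (SE 0.088, limma adjusted p = 0.00218). Neither gene's groups overlapped and neither reached the fold threshold. The value of *F11R* is uncertain, since 36.6% of its exonic bases are shared with *AL591806.3* on the same strand. *MARVELD2*, tricellulin, had 0 to 2 reads and *MARVELD3* 2 to 7 reads per library.

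The plaque genes went in both directions. *TJP1*, which encodes ZO-1, was the main plaque gene at 19.0, 18.5 and 18.7 FPKM in TPC-1 against 17.0, 18.1 and 17.8 FPKM in *RRM2*-OE-TPC-1. The groups did not overlap, but the log2 fold change was small, at -0.086 with a 95% interval from -0.17 to 0.00040 (limma adjusted p = 0.072). Scaled to library totals, to the upper quartile or with voom on reads, *TJP1* passed at adjusted p = 0.00751, 0.00638 and 0.00132, with log2 fold changes of -0.14, -0.16 and -0.14. *TJP3*, which encodes ZO-3, stood at 1.52, 1.55 and 1.34 FPKM in TPC-1 and at 0.131, 0.0831 and 0.149 FPKM in *RRM2*-OE-TPC-1. These values rested on 107, 110 and 90 reads against 8, 6 and 10. The ratio of the mean FPKM values was 12.1, and the log2 fold change was -2.84 (SE 0.19, limma adjusted p = 4.79e-06). The size depends on the pseudocount, with -1.14 at a pseudocount of 1 and -3.53 at 0.01, and the call was kept at both. Per FPKM of *TJP1*, *TJP3* went from 0.0786 ± 0.0063 to 0.0069 ± 0.0020 (SD, n = 3 each).

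*CGN*, cingulin, was the exception among the called members. It stood at 0.172, 0.351 and 0.247 FPKM in TPC-1 and at 0.753, 0.688 and 0.730 FPKM in *RRM2*-OE-TPC-1, on 19, 39 and 26 reads against 72, 78 and 77. All 3 overexpression libraries lay above all 3 TPC-1 libraries, and the gene rose by 1.24 on the log2 scale (SE 0.22, limma adjusted p = 0.00137). With a pseudocount of 1 the rise was 0.46, under the fold threshold.

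**Figure D2:**
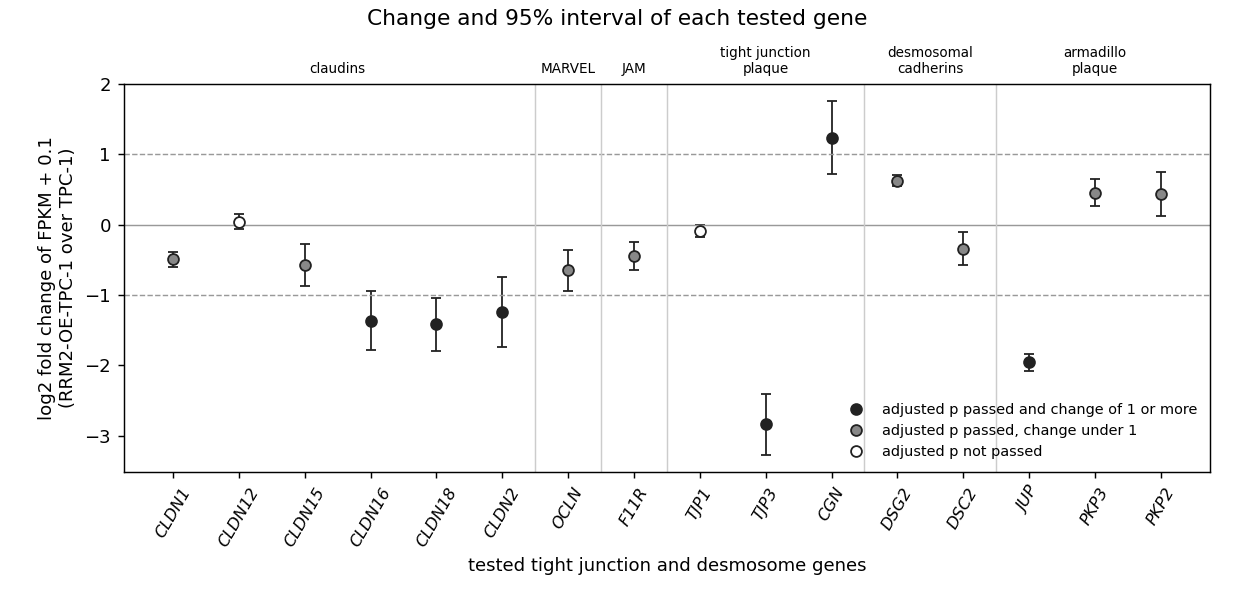
Log2 fold change of FPKM + 0.1 of *RRM2*-OE-TPC-1 over TPC-1 for the 16 tested members by role, with 95% intervals from limma; dashed lines mark a change of 1. The 8 tight junction members with grey or black points below 0 contrast with *CGN* at 1.24, and *JUP* at -1.96 contrasts with *DSG2* at 0.63.

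Of the 5 tested desmosome genes, *JUP* and *DSC2* fell and *DSG2*, *PKP3* and *PKP2* rose by the adjusted p. Over all genes tested, 32.7% fell and 34.9% rose by the same measure. *JUP*, plakoglobin (chromosome 17, 41754604 to 41786931, minus strand, GRCh38), which also serves the adherens junction, stood at 44.7, 40.7 and 42.7 FPKM in TPC-1 and at 11.4, 10.9 and 10.4 FPKM in *RRM2*-OE-TPC-1. The groups lay far apart, with 3364 reads or more in each TPC-1 library and 927 or fewer in each overexpression library. *JUP* fell by 1.96 on the log2 scale (SE 0.051, limma adjusted p = 5.43e-08), a ratio of means of 3.91, and leaving out any 1 library gave -1.99 to -1.92. It was the most abundant of the 46 members in TPC-1, and it and *TJP3* were the members that also passed the test of a change above 1.

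*DSG2*, the desmoglein of simple epithelia, moved the other way, from 25.5, 26.6 and 26.3 FPKM to 41.0, 39.5 and 40.7 FPKM. It rose by 0.63 on the log2 scale (SE 0.033, limma adjusted p = 1.62e-06), and all overexpression libraries lay above all TPC-1 libraries. *DSC2*, its desmocollin counterpart, stood much lower at 1.36, 1.42 and 1.47 FPKM against 1.09, 1.12 and 1.07 FPKM. It fell by 0.34 (SE 0.10, limma adjusted p = 0.0172), with adjusted p = 0.0582 without TPC-1 replicate 3. Both tested plakophilins rose, *PKP3* from 7.07, 7.44 and 8.77 to 11.1, 10.8 and 10.1 FPKM, by 0.46 (SE 0.082, limma adjusted p = 0.00137). *PKP2* went from 0.587, 0.566 and 0.543 to 0.786, 0.771 and 0.847 FPKM, by 0.44 (SE 0.14, limma adjusted p = 0.0221). The *PKP2* change no longer passed without TPC-1 replicate 3 (adjusted p = 0.062), without *RRM2*-OE-TPC-1 replicate 3 (adjusted p = 0.0698) or with the replicate block (adjusted p = 0.051).

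The genes under the minimum include most of the stratified desmosome. *DSC1*, *DSC3*, *DSG1*, *DSG3* and *DSG4* lie with *DSC2* and *DSG2* in 1 cluster of 7 genes over 559001 bases of chromosome 18 (30990008 to 31549008, GRCh38), and these 5 genes had 7 reads in all 6 libraries together. *PKP1* had 0 reads in every library, which at 3 reads as the limit for a count of 0 is a statement on this depth only. The plakins *DSP*, *PPL* and *EVPL* had 47 reads in the 6 libraries together. *DSP*, desmoplakin, had 0 reads in each TPC-1 library and 4, 5 and 6 reads in *RRM2*-OE-TPC-1. *PPL* had 4 to 6 reads per library and *EVPL* 0 or 1. In the same libraries *DSG2* had 2597 to 4190 reads and *JUP* 816 to 3688 reads.

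Over the 46 members, 6 had 0 reads in every library, 17 had 1 to 9 reads at most, and 7 untested ones had 10 or more. Of the 30 untested members, 18 were claudins and 9 were desmosome genes. *CLDN22* was among those at 0. All of its exonic bases lie within *WWC2* on the opposite strand, for which 11329 reads were counted. Since the use of strand in counting is not given, this 0 is not read as a level of *CLDN22*.

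**Figure D3:**
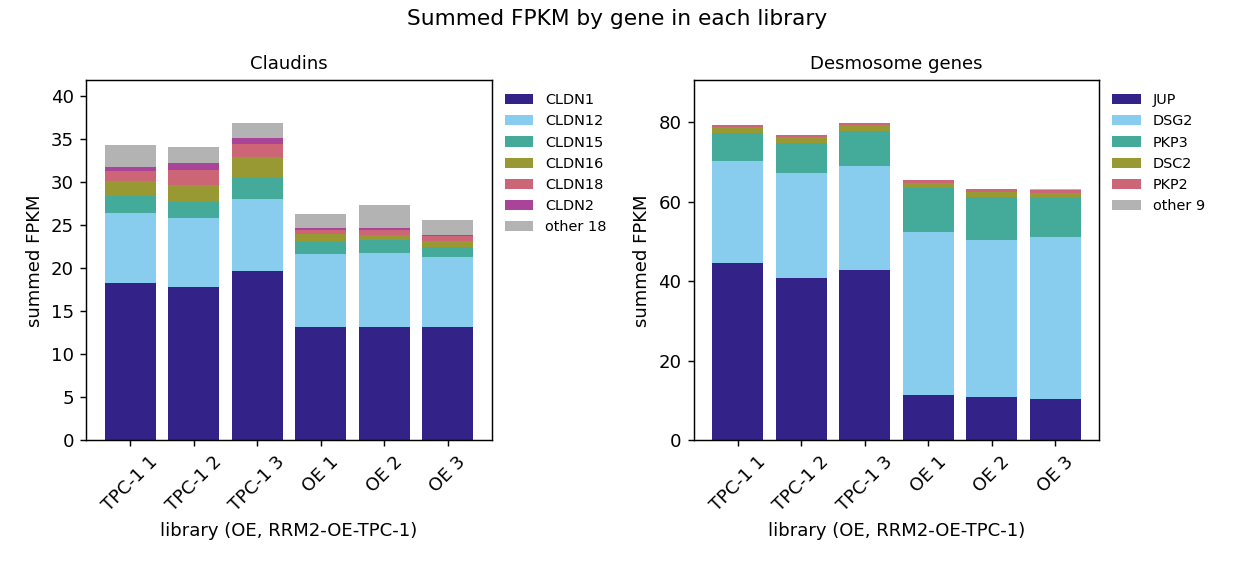
Summed FPKM of the 24 claudins (left) and the 14 desmosome genes (right) in each library, stacked by gene; OE stands for *RRM2*-OE-TPC-1 and grey for the genes not named. *JUP* took 53.0 to 56.4% of the desmosome sum in TPC-1 against 16.4 to 17.5% with overexpression, while *DSG2* went from 32.2 to 34.6% to 62.5 to 64.4%.

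Within a library, ratios between members do not depend on the scaling of that library. *JUP* stood at 1.64 ± 0.111 per FPKM of *DSG2* in TPC-1 and at 0.270 ± 0.0136 with overexpression (SD, n = 3 per group). Against *CTNNB1*, beta-catenin, the armadillo protein closest to *JUP* in kind, it went from 1.27 ± 0.0811 to 0.287 ± 0.0028. *CTNNB1* itself rose by 0.18 on the log2 scale (limma adjusted p = 0.00431). *DSC2* per FPKM of *DSG2* went from 0.0541 ± 0.0013 to 0.0271 ± 0.0010. *PKP3* per FPKM of *PKP2* was 13.8 ± 2.11 and 13.3 ± 1.26, with overlap. The ratios of *JUP* and *DSC2* did not overlap between groups, but an exact permutation test of 3 against 3 libraries cannot go below a two-sided p of 0.1.

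Summed by role, the desmosomal cadherins went from 27.6 ± 0.591 to 41.5 ± 0.751 FPKM and the armadillo proteins from 51.0 ± 2.02 to 22.4 ± 1.03 FPKM (SD, n = 3 each). *DSG2* thus replaced *JUP* as the most abundant desmosome transcript in each of the 3 overexpression libraries.

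**Figure D4:**
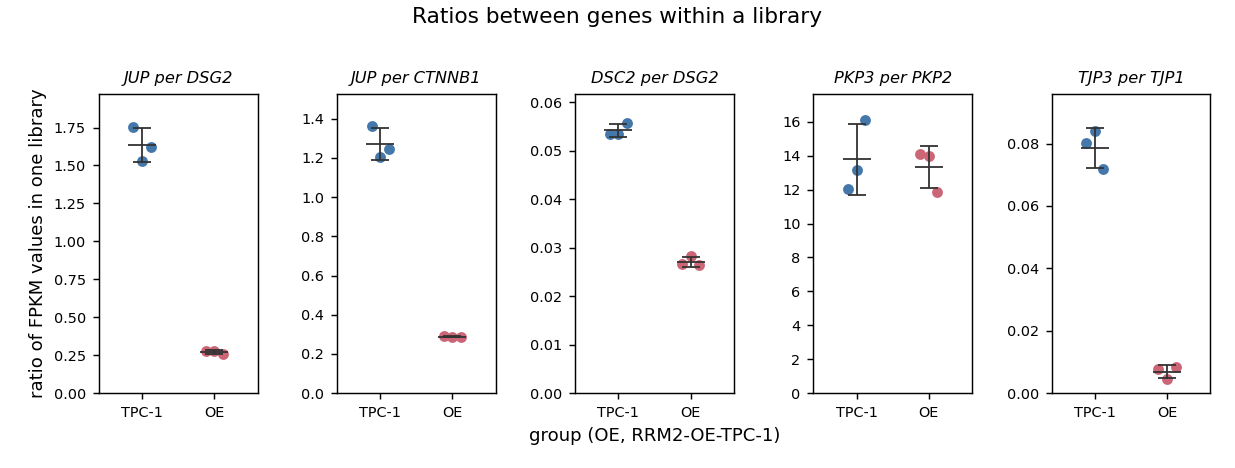
Ratios of FPKM values within single libraries for 5 pairs of genes, by group, with OE for *RRM2*-OE-TPC-1; points are libraries and bars are means ± SD (n = 3). *JUP* per *DSG2* was 1.53 to 1.75 in TPC-1 and 0.255 to 0.279 with overexpression, and *PKP3* per *PKP2* overlapped between groups.

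The neighbouring junction genes, which are no members, were read in lists. Of 19 adherens junction genes 12 were tested. Of these, 1 was called higher and 1 lower (16.7%), against 11.5% of all genes tested, a share that stands on 2 genes. Their median log2 fold change was 0.015. *CDH2*, N-cadherin, rose by 1.07 (SE 0.10, limma adjusted p = 3.14e-05), from 6.78 ± 1.10 to 14.3 ± 0.280 FPKM (SD, n = 3 per group). *PTPRM*, a receptor phosphatase of cell contacts, fell by 1.05 (limma adjusted p = 3.22e-07). *CDH1*, E-cadherin, was under the minimum at 0.068, 0.087 and 0.081 against 0.045, 0.057 and 0.051 FPKM, on 24 and 15 reads per group.

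Of 34 other tight junction and polarity genes 27 were tested and 3 were called (11.1%), near the 11.5% of all genes tested. All 3 were lower, where 6.97% of all genes were called lower. *ARHGEF2*, a RhoA exchange factor held at the junction by cingulin, fell by 1.51 (limma adjusted p = 2.02e-07), from 40.6, 36.0 and 40.8 to 13.8, 13.7 and 13.5 FPKM. *PARD6B*, a polarity adaptor, fell by 1.23 (limma adjusted p = 5.46e-06), and *AMOT*, angiomotin, fell by 1.06 (limma adjusted p = 8.64e-06). By the adjusted p alone, 7 of the 27 rose and 14 fell, where 34.9% of all genes rose and 32.7% fell. The median over the 27 was -0.12.

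None of the 7 tested plakins and desmosome-linked genes of 8 listed was called, against 11.5% of all genes tested. By the adjusted p 5 rose and 2 fell, where 34.9% of all genes rose and 32.7% fell, and the median was 0.32. Of 15 cornified envelope genes, 14 were in the table under the listed symbols and 2 were tested, and *FLG*, filaggrin, rose by 1.21 (limma adjusted p = 3.23e-07). None of the 6 tested gap junction genes of 16 was called, with a median of 0.0072. Of 15 regulators of epithelial genes 4 were tested and 2 were called (50.0%), against 11.5% of all genes tested, a share that stands on 2 genes. *KLF5* rose by 1.14 (limma adjusted p = 5.46e-06) and *ELF3* fell by 1.06 (limma adjusted p = 5.43e-06). By the adjusted p 1 of the 4 rose and 3 fell, where 34.9% of all genes rose and 32.7% fell, and the median was -0.76. Of 9 repressors of epithelial genes 8 were tested and none was called. By the adjusted p 1 rose and 5 fell, beside the shares just given for all genes, and the median was -0.32.

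**Figure D5:**
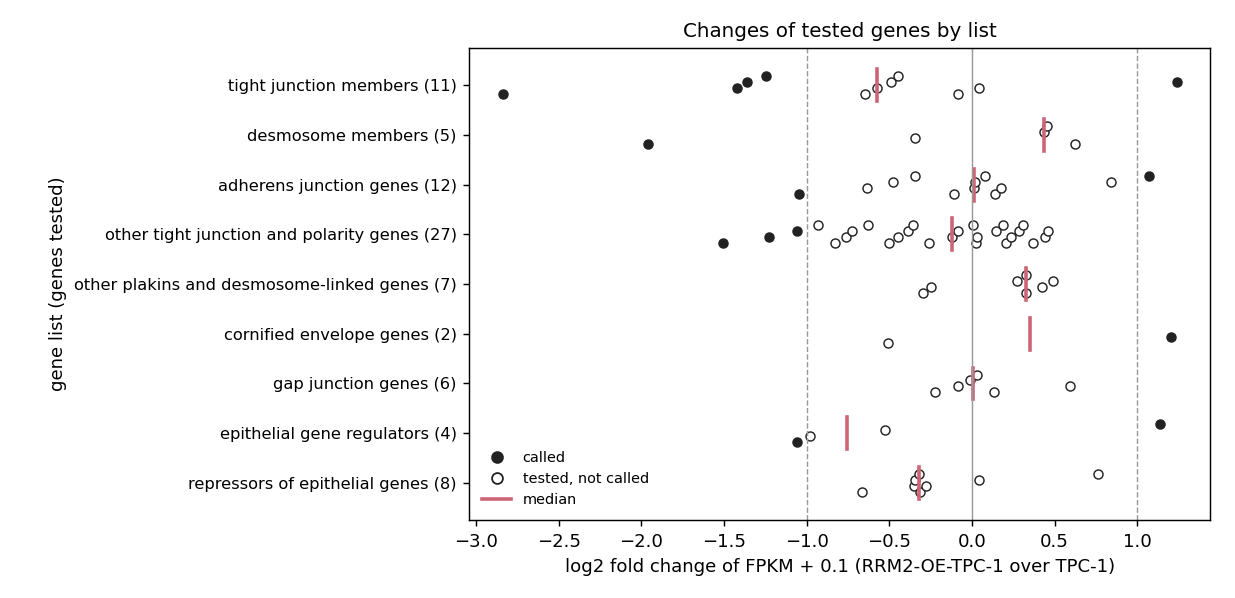
Log2 fold change of FPKM + 0.1 of *RRM2*-OE-TPC-1 over TPC-1 for each tested gene, by list, with the number tested in brackets; filled points are called genes, red bars are medians and dashed lines mark a change of 1. The median was -0.57 for the 11 tight junction members and 0.44 for the 5 desmosome members, of which *JUP* lies at -1.96. Only 7 of the 11 tight junction members reached the minimum in both groups, as did all 5 desmosome members, so the 2 medians are not read against each other.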

How the data were processed

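Strand-marked libraries were sequenced from 3 TPC-1 and 3 *RRM2*-OE-TPC-1 samples. RNA selection is given differently in the sources, as ribosomal RNA removal with RNase R digestion in the labels and as poly(A) selection in the study's methods. Per the methods and the submitters' processing notes, the authors aligned reads with HISAT2 (2.0.5), counted them with featureCounts (1.5.0) on GRCh38.p14 and deposited FPKM values. DESeq2 (1.20.0) was the authors' test on counts. The annotation and the use of strand in counting are not given in the sources used here. All 58735 identifiers, positions and exon-union lengths equalled GENCODE release 29. The FPKM values were whole multiples of 1 read in 100.0% of cases (tolerance 0.01), which gave reads per gene and the depth.

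Members and lists were chosen with earlier results of these data known. Limma (3.58.1, R 4.3.3; lmFit and eBayes with trend) was fitted to log2(FPKM + 0.1) without covariates over 13621 genes with at least 0.5 FPKM and 10 reads in at least 3 libraries. The study's test on counts was not taken as the main test because the deposited values are FPKM, and voom on recovered reads was an alternative. The script was tested on simulated data. Named genes are every tested member, untested members with 10 reads or more in a library, at most 3 called genes per direction of each other list, *RRM2*, *CDH1* and *CDH2*, except that some genes are not reported here; further untested members were named after their values were seen. *CTNNB1* was named for its ratio to *JUP*. Replicate numbers did not pair the samples, since deviations of same-numbered libraries correlated at -0.0105, -0.0060 and -0.055. No 2 libraries differed by less than counting noise, the smallest ratio of their squared differences to counting variance being 1.85. Adjusted p-values measure the spread among 3 libraries per group. Gene overlaps were computed from the annotation, and promoter windows were read from RefSeq (GRCh38.p14). Alternatives were other pseudocounts, filters, scalings, a replicate block, each library left out, protein-coding genes only, voom, and the adjusted p alone or a test of a change above 1.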

Additional observations from a re-analysis of the deposited data

How the results depend on the processing

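Of the 16 tested members 6 were called, 1 higher and 5 lower. By the adjusted p alone there were 14, 4 and 10. A pseudocount of 1 and the test of a change above 1 each gave 2, 0 and 2, which were *JUP* and *TJP3* in both. The counts were also 6, 1 and 5 with each library left out, with the other filters, scalings and pseudocount, with voom and with the replicate block, whose value of 6 stood beside 1566 against 1560 genes called over all. The median log2 fold change of -0.47 was -0.5276 with library totals, -0.5395 with upper quartile factors, -0.5343 with voom, -0.3797 with a pseudocount of 1 and 0.0426 over the 40 members that had a value with no filter on low values. It was -0.5022 to -0.4335 with 1 library left out. Over all genes tested, the median shift from the main fit was -0.0568 with library totals, -0.0687 with upper quartile factors and -0.0588 with voom. Genes as a whole thus moved under these settings, and not the members alone. With median-of-ratios factors the shift was 0.0003, so that scaling hardly differed from the deposited one and is no separate check. The cause of the shifts in the member median was not tested, beyond the larger number of members without the filter. *CLDN12* reversed, to -0.0162 with library totals, -0.0282 with upper quartile factors and -0.0165 with voom. Over all genes, calls numbered 716 with a pseudocount of 1, 618 in the test of a change above 1 and 9207 by the adjusted p alone, against 1560. The adjusted p of *PKP2* was 0.0658 with the FPKM minimum alone and 0.119 with no filter, and that of *DSC2* was 0.0567 with no filter. Members under 10 reads in every library could not be compared at this depth.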
